A study of Mus musculus with 4 samples.

Results

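Complement components and their receptors were followed through osteoclast formation in culture. The set comprised 9 genes picked by symbol: the C1q chains C1qa, C1qb and C1qc, the central component C3, the alternative pathway genes Cfb and Cfp, the anaphylatoxin receptors C3ar1 and C5ar1, and the membrane regulator Cd55. It was assembled around C1q and Cfb because these were lower on dentin than on plastic in these same arrays, so values of that contrast describe the choice and support nothing. Of 18193 genes named on the array, 8 of the 9 were represented. C3 had no probe set named for it in the annotation and was not analysed here, and Cd55 lay below the measurable range on every array, which left 7 measured genes.

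The RNA was from marrow cultures of C57BL/6 mice, 8 to 10 weeks of age. Marrow cells kept for 3 days in M-CSF at 100 ng/ml, the growth factor of the macrophage lineage, gave bone marrow macrophages (BMM). Adding RANKL, the osteoclast differentiation cytokine, at 100 ng/ml to M-CSF for 2 days gave mononuclear pre-osteoclasts stained for TRAP, tartrate-resistant acid phosphatase (pOC). With 2 further days in both cytokines the cells fused into multinucleated, TRAP-stained osteoclasts, grown on plastic (mOCp) or on dentin slices, a substrate they can resorb (mOCd). Every group saw M-CSF, and all but BMM saw RANKL. Each stage was measured on 1 array with no replicates, so there is no test between stages, and having so few arrays limits the precision throughout. Stage, time in culture and time in RANKL cannot be told apart. Whether mice were pooled, or mononuclear cells removed from the mature cultures, is not given in the sources used here.

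Complement is a cascade of plasma proteins that tags microbes, immune complexes and dying cells. In the classical pathway C1q, built from A, B and C chains with collagen-like stalks and globular heads, binds the target and starts cleavage of C4, C2 and C3. In the alternative pathway factor B, encoded by Cfb, joins C3b to form a C3-cleaving enzyme that properdin, encoded by Cfp, stabilises. The fragments C3a and C5a signal to leukocytes through C3ar1 and C5ar1, while Cd55 (decay-accelerating factor) dismantles the C3-cleaving enzymes on the cell's own membrane. Most complement proteins of plasma come from the liver, but C1q is made largely by macrophages and dendritic cells.

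The C1q genes are neighbours on chromosome 4, in the order C1qb, C1qc and C1qa, per RefSeq. The annotated start regions of 4 members that were lower in pOC than in BMM are shown because these genes differed together, as RefSeq gives them for GRCm38.p6. Capitals mark GAGGAA, the core letters bound by the myeloid factor PU.1, and TGCTGA, a half-site of Maf family factors, on either strand. All 4 genes lie on the minus strand, at chr4:136886151-136886450 for C1qb, chr4:136892865-136893164 for C1qc, chr6:122856108-122856407 for C3ar1 and chr7:16259289-16259588 for C5ar1.
C1qb: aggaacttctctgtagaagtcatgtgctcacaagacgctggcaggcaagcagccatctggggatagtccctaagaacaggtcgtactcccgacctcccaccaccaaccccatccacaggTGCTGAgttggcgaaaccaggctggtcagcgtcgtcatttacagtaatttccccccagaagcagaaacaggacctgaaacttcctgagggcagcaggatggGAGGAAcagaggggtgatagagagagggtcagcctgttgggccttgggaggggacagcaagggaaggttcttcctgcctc
C1qc: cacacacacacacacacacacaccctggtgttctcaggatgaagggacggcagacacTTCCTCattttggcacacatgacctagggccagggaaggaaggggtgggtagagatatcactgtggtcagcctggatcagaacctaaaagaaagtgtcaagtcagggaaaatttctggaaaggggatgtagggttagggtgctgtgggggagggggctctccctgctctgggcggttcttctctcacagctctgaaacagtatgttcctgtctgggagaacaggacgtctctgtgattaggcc
C3ar1: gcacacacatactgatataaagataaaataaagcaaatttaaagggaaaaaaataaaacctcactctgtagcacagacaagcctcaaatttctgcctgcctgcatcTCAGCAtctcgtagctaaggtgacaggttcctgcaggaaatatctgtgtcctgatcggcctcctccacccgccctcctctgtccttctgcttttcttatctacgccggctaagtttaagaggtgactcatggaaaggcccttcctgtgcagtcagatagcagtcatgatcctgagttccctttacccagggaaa
C5ar1: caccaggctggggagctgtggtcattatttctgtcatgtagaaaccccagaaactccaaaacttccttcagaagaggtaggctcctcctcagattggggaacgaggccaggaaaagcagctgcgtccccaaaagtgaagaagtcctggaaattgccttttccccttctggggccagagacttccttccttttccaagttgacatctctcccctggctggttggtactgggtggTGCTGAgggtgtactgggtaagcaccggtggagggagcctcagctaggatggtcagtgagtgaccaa

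The GAGGAA letters occurred once in the C1qb window, 30 bases before the start, and once in that of C1qc, 193 bases before it on the opposite strand. They were found in 28.3% of 32851 RefSeq start regions of the same length. TGCTGA occurred in the windows of C1qb, C3ar1 and C5ar1 and in 19.5% of all windows. Windows were read for 7 members, all but C1qa and Cfb, of which 3 held GAGGAA and 5 TGCTGA. An interferon response element (GAAA, any 2 bases, GAAA, in 3.44% of all windows) and an NF-kB site (GGGA, any base, TTTCC, in 0.411%) were matched in 0 of the 7. The AP-1 letters TGANTCA, in 7.81% of all windows, were matched in that of C3ar1 at 22 bases before the start. A match is only a run of letters, and no binding was measured.

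Intensities below the median of an array's probe sets, which was 12.7, 14.5, 14.8 and 15.8 from BMM to mOCd, were set to that value, called the floor. A gene is called higher or lower when its intensities differed 2-fold or more and the brighter of them reached the 75th percentile of its array, between 77.8 and 87.0. Fold changes against a value at the floor are bounds. Different probe sets of the same gene disagreed in their log2 ratio with an SD between 0.391 and 0.504, depending on the comparison. An interval of 2 SD serves here as a guide to measurement error, and it leaves out the spread between cultures and arrays.

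The labels were checked against markers. Summed intensity of 10 osteoclast genes, among them Ctsk (cathepsin K) and Acp5 (TRAP), was 256.5 in BMM and 31901.5 in pOC, and in the mature cultures 49318.4 on plastic and 49835.4 on dentin. A list of 20 macrophage markers without complement genes, of which 19 were named, summed to 38587.5, 21293.3, 34625.0 and 25830.6 in the same order. Their median intensity was 1581.9, 177.7, 295.6 and 123.5, so by the median mOCd was lowest, whereas by the sum pOC was lowest. Some of the macrophage markers, such as Csf1r, are also expressed by osteoclasts. Dendritic, endothelial, erythroid, B, T and NK cell markers reached the 75th percentile in 0 cases on any array. Against pOC, hybridisation spike-ins were brighter in mOCp and mOCd. Scaling to them shifted the median log2 ratio by −0.43 for mOCp against pOC and by −0.36 for mOCd against pOC, so small differences between these arrays are relative to the deposited scaling.

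C1q transcripts were bright in macrophages and far lower in pre-osteoclasts. C1qa, the A chain, read 3372.4 in BMM, above 99.3% of probe sets on that array, then 41.9 in pOC, 108.9 on plastic and 38.9 on dentin. The B chain gene C1qb read 4605.6, 146.7, 368.7 and 95.7 in the same order, and C1qc, the C chain, 3518.3, 85.4, 180.1 and 40.6. For each chain BMM was highest, mOCp second, and pOC and mOCd lowest. C1qa was 80.5-fold lower in pOC than in BMM, C1qc 41.2-fold and C1qb 31.4-fold. Of 7254 genes eligible for a call in this comparison, 0 had a lower ratio than C1qa, 7 lay below C1qc and 13 below C1qb.

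The other 2 probe sets of C1qb gave log2 ratios of −4.82 and −5.05 against −4.97 on the brightest. The 3 chains thus differed among themselves by 1.36, from −6.33 for C1qa to −4.97 for C1qb, a wider range than the 0.23 between probe sets of C1qb. C1qa had the lowest ratio of the chains. The guide of 0.78 for this comparison is for the ratio of a single probe set. It does not cover a difference between 2 ratios, so the chains are not ordered by it.

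**Figure D1:**
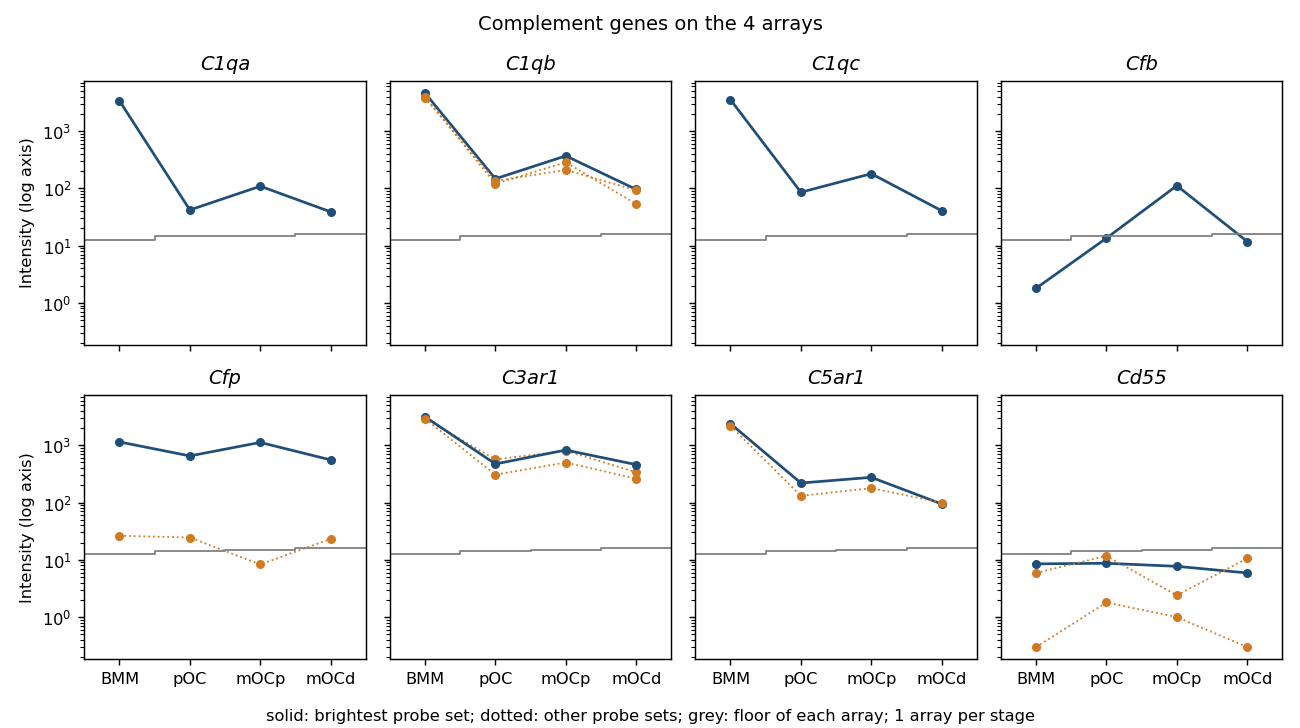
Intensity (log axis) of the 8 complement genes with a probe set, on the BMM, pOC, mOCp and mOCd arrays. Solid lines are the brightest probe set, dotted lines the others, and the grey step the floor; the C1q chains are between 3372.4 and 4605.6 in BMM and between 41.9 and 146.7 in pOC, while Cfb exceeds the floor in mOCp alone and Cd55 on no array.

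In osteoclasts on plastic all 3 C1q chains were called higher than in pOC, and on dentin 0 of 3. Of eligible genes 8.77% were called higher in mOCp than in pOC, and 10.8% in mOCd than in pOC. C1qa was 2.60-fold, C1qb 2.51-fold and C1qc 2.11-fold higher in mOCp than in pOC. These log2 ratios spanned only 0.30, from 1.08 to 1.38, although a further probe set of C1qb gave 0.64. In mOCd the C1qa ratio to pOC was −0.11 and that of C1qb −0.62, while C1qc was 2.10-fold lower. The other probe sets of C1qb gave −0.54 and −1.17 there, and the latter was past 2-fold. The mOCp level was still small beside the macrophage level: 3.23% of BMM for C1qa, 5.12% for C1qc and 8.01% for C1qb. On dentin the chains stood at 1.15%, 1.15% and 2.08% of BMM. Both comparisons use pOC, and each shares an array with the contrast that the set was chosen on.

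The calls of the C1q chains as higher on plastic than in pOC depended on the scaling. They were kept after quantile normalization, median scaling and cyclic loess. With the arrays scaled to the spike-ins the log2 ratios of mOCp to pOC were 0.95 for C1qa, 0.90 for C1qb and 0.64 for C1qc, and none reached 2-fold. That scaling shifts all genes of a comparison alike, by −0.43 for the median gene here.

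Between the mature cultures, the contrast that the set was chosen on, C1qc was 4.44-fold, C1qb 3.85-fold and C1qa 2.80-fold lower on dentin than on plastic. The 3 probe sets of C1qb ranged from −1.18 to −2.42. This spread of 1.24 was wider than the 0.66 between the chains, so the chains cannot be ordered here. In the order of levels on the brightest probe sets, pOC and mOCd lay within the measurement guide for C1qa and C1qb. They lay just outside it for C1qc, where the gap of 1.07 met a guide of 1.01. A further probe set of C1qb, at −1.17 in mOCd against pOC, was also outside it.

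Among genes above the floor on all 4 arrays, those with the profile most like C1q were found by the distance between log2 values centred on each gene's mean, averaged over the 3 chains. Of 9062 genes, the nearest were Rnase4 and Ang, which encode secreted ribonucleases, then Ly86, the MD-1 partner of the receptor RP105, the fractalkine receptor Cx3cr1, and the monocyte chemokine Ccl2. Rnase4 read 2262.7, 39.6, 117.8 and 20.1 from BMM to mOCd, at a distance of 0.56. Ang lay at 0.79 and the other 3 between 0.91 and 0.98. C1qc was the nearest gene to C1qb, and C1qb the second nearest to C1qc. C1qa was in place 13 from C1qb, near C5ar1 in place 16, and in place 4 from C1qc. Seen from C1qa, C1qc was in place 2 and C1qb in place 3. Against the averaged profile C5ar1 was in place 15 and C3ar1 in place 115, whereas Cfp was in place 1322. These places describe 4 arrays that all genes share, and the distance includes the contrast that the set was chosen on.

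**Figure D2:**
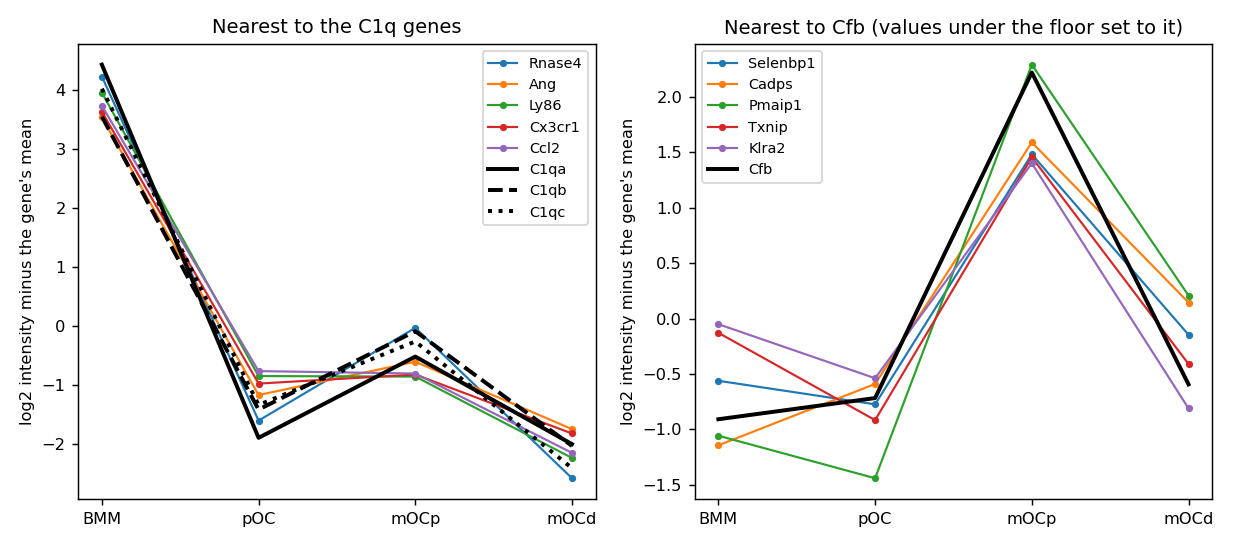
Log2 intensity minus each gene's own mean on the 4 arrays, for the C1q chains with their 5 nearest genes (left) and for Cfb with its 5 nearest (right, values under the floor set to it). The left group peaks in BMM and the right group in mOCp, as their selection by likeness to C1q and to Cfb fixed.

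The genes flanking the C1q cluster were dim, and none was called. On the C1qa side Epha8, an ephrin receptor, was under the floor on all 4 arrays (0.6 to 12.8). The next gene, the zinc finger gene Zbtb40, read 35.1, 14.6, 39.6 and 23.6 from BMM to mOCd. Its log2 ratios were −1.27 in pOC against BMM and 1.44 in mOCp against pOC, past 2-fold in the same directions as C1q, and were uncalled only for lack of brightness. With a floor at the 60th percentile they were −0.54 and 0.72. Ephb2, on the C1qb side, had no probe set named for it alone.

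Cfb behaved differently from C1q. Its single probe set read 1.8 in BMM and 13.5 in pOC, then 111.3 on plastic and 11.8 on dentin. The value exceeded the floor on the mOCp array alone, where it was above 79.2% of probe sets. Against pOC it was at least 7.68-fold higher on plastic, and against BMM at least 8.76-fold. Between the mature cultures it was at least 7.04-fold lower on dentin, part of the basis for its choice. The level on dentin and that in pOC were both under the floor and have no order. With a floor at the 60th percentile the bounds on its log2 ratio were 2.21 for mOCp against pOC and −2.09 for mOCd against mOCp, in place of 2.94 and −2.82. For mOCp against BMM the bound of 3.13 became 2.21 with that floor and 5.03 with a floor at the 25th percentile. The calls were kept. No other probe set measures Cfb, so its peak rests on a single reading.

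Genes beside Cfb on chromosome 17 had other profiles. C2, its homologue in the classical pathway and the next gene, was under the floor on all 4 arrays (2.8 to 10.5). Nelfe, a subunit of a transcription elongation factor on the other side, read 266.8, 245.6, 189.1 and 141.5 from BMM to mOCd, with no call. The 5 genes nearest to Cfb in profile among 9065 were Selenbp1, Cadps, Pmaip1, Txnip and Klra2, at distances from 0.93 to 1.22. Txnip, a thioredoxin-binding protein that restrains glucose uptake, read 894.1, 517.7, 2684.1 and 735.7, and Pmaip1, a death-promoting BCL2 family gene, 93.3, 71.5, 952.0 and 224.4. Both peaked in mOCp, which their selection by likeness to Cfb fixed. The Cfb profile used is its mOCp value beside the floor on the other arrays. It includes the contrast that the set was chosen on. The C1q chains were among the least similar genes to Cfb, in places 9028 to 9062.

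Cfp kept a high signal at every stage. Properdin is the only known positive regulator of the alternative pathway enzyme. The brightest probe set read 1140.3 in BMM, 650.3 in pOC, 1118.2 on plastic and 553.5 on dentin. BMM and mOCp were the higher pair, pOC and mOCd the lower. Sorted by level (BMM, mOCp, pOC, mOCd), no neighbours were apart by more than the measurement guide. The ratio of pOC to BMM, −0.81, was just beyond its guide of 0.78. In mOCp Cfp was at 98.1% of the BMM level, against 3.23% to 8.01% for the C1q chains. The ratio of mOCd to mOCp was −1.01, just past 2-fold, and under it after quantile normalization (−0.94), spike-in scaling (−0.94) and cyclic loess (−0.93). That of mOCd to BMM was −1.04, or −0.61 with the mean over probe sets. A second probe set was dim, at 26.3, 24.5, 8.3 and 23.1, and under the floor in mOCp, so that its ratio of mOCd to mOCp was at least 0.64 in the opposite direction. Averaging the 2 probe sets turned the ratio of mOCd to mOCp to 0.23 and that of mOCp to pOC from 0.78 to −0.39.

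Both anaphylatoxin receptors were lower throughout osteoclast formation but stayed measurable. C3ar1, the C3a receptor, read 3141.0, 470.8, 822.9 and 458.1 from BMM to mOCd. It was 6.67-fold lower in pOC than in BMM on the brightest probe set, and 5.19-fold and 9.48-fold lower on the other 2. C5ar1, the C5a receptor, read 2374.0, 218.8, 274.9 and 94.2. It was 10.8-fold lower in pOC than in BMM, or 16.6-fold on its other probe set. On every probe set of both receptors BMM was the brightest array.

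From pOC onwards the receptors showed smaller differences. C3ar1 was 1.75-fold higher in mOCp than in pOC, under the 2-fold limit, and at −0.04 on the log2 scale in mOCd. C5ar1 read 1.26-fold higher in mOCp, within the measurement guide, and was called 2.32-fold lower in mOCd, although its other probe set gave 1.32-fold. On dentin against plastic C5ar1 was 2.92-fold lower, or 1.80-fold on its other probe set. C3ar1 was 1.80-fold lower there, or 1.91-fold and 2.38-fold on its others. By mOCd the C5ar1 level was 3.97% of that in BMM and the C3ar1 level 14.6%.

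Cd55 was not measured at any stage. Its 3 probe sets read between 0.3 and 11.7, all under the floor. A further probe set that the annotation shares with the near-identical gene Cd55b read at most 5.3.

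Over the set, 5 of 6 measured members were called lower in pOC than in BMM and 0 higher. Cfp was the exception, at −0.81, and was called lower with median scaling (−1.0). Of eligible genes 13.1% were lower and 11.1% higher. The median log2 ratio of these 6 was −4.21, against 0.04 over all eligible genes. In mOCp against pOC 4 of 7 were higher and 0 lower, with 8.77% of genes higher and 11.4% lower, and the median was 1.08 against −0.03 over all. Cfb is among the 4, and in the median, only through the array where it is high. In mOCd against pOC 2 of 6 were lower, C1qc and C5ar1, with 12.2% of genes lower and 10.8% higher, and the median was −0.42 against −0.01. The 2 became 1 after cyclic loess or with the mean over probe sets. In mOCd against mOCp 6 of 7 were lower, with 2.55% of genes lower and 2.2% higher, a count that the choice of members fixed and from which nothing is read. Seen over the whole course, 5 of 7 were lower and 1 higher in mOCp than in BMM (19.3% and 16.8% of genes), and 6 of 6 lower in mOCd than in BMM (20.3% lower and 18.8% higher). Cfp is counted in the 6 of 7 and the 6 of 6, and its calls there were lost under the settings given above. These comparisons share arrays and are not independent of each other. Those of mOCp or mOCd with pOC or BMM each hold an array of the contrast that the set was chosen on.

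**Figure D3:**
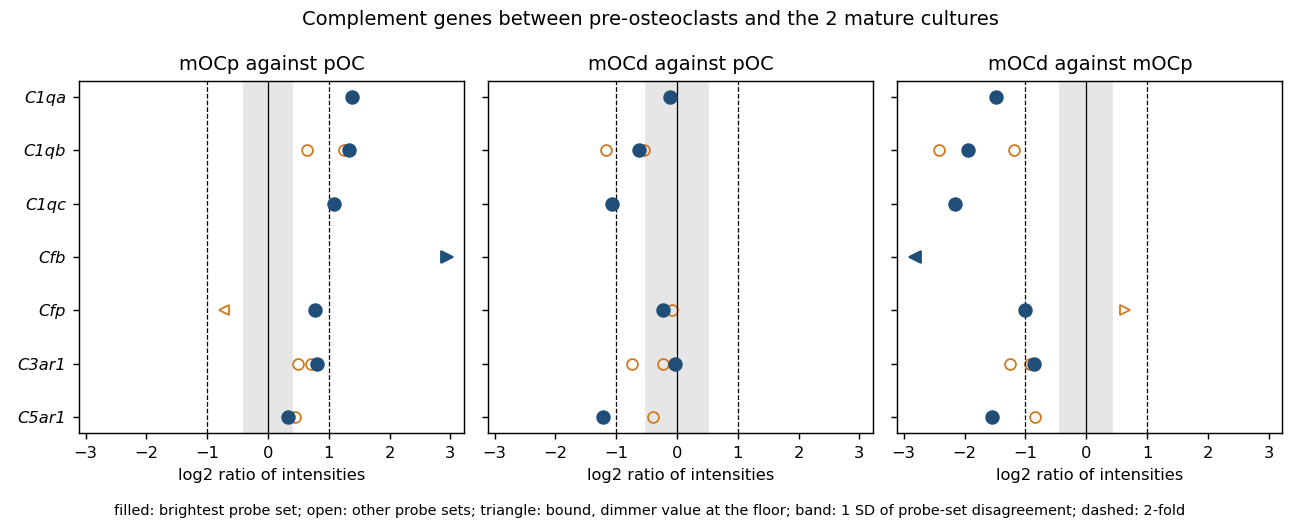
Log2 ratios of intensity for 7 complement genes in 3 panels, plastic against pOC, dentin against pOC, and dentin against plastic. Filled symbols are the brightest probe set, open ones the others, triangles are bounds, the band is 1 SD of probe-set disagreement and dashed lines mark 2-fold; the filled symbols of the C1q chains lie right of the 2-fold line in the left panel, where an open one of C1qb at 0.64 does not, and left of it in the right panel.

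The further probe sets of C1qb, C3ar1 and C5ar1 are readings that the rule did not use. In each of the 6 comparisons these 5 had the sign of the brightest probe set of their gene. With the dim second probe set of Cfp included, 5 of 6 had it in mOCp against pOC and in mOCd against mOCp, and 6 of 6 in the other comparisons. They come from the same RNA and array, so they bear on the probe and not on the culture.

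Part of the macrophage markers differed in the same directions as C1q. Of the 19 named, 12 were lower and 0 higher in pOC than in BMM (13.1% and 11.1% of eligible genes), with a median log2 ratio of −2.77. Of 18 measured, 6 were higher in mOCp than in pOC (8.77%) and 12 were not called. In mOCd against mOCp 8 of 18 were lower (2.55%), with a median of −1.05. Maf, a transcription factor of macrophages, read 1131.9, 63.1, 171.4 and 76.8 from BMM to mOCd, and Aif1 490.0, 53.6, 251.8 and 60.4. Other markers had other profiles. Csf1r, the M-CSF receptor, read 5815.9, 4898.6, 7511.7 and 7644.1, and Lyz2 and Cd68 likewise had log2 ratios of −0.07 and 0.29 in pOC against BMM. Marco, a scavenger receptor, read 56.3, 35.8, 1527.0 and 419.0 and was brightest in mOCp. Fcgr1, an Fc receptor, read 1967.2, 57.0, 30.3 and 16.7, lower in mOCp than in pOC. Cd163 stood near the floor on all arrays (1.3 to 16.4). The part of macrophages remaining in the cultures in the complement values was not tested, and in bulk RNA fewer macrophages and less RNA per cell cannot be told apart.

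Other measures also differed between the arrays. Neutrophil markers, relevant because neutrophils carry C5ar1 and properdin, summed to 433.1, 973.2, 2059.7 and 1103.4 from BMM to mOCd, with 9 of 12 named. S100a8 read 146.4, 380.1, 1112.6 and 506.8 and Lcn2 8.4, 121.4, 367.9 and 102.7, both brightest in mOCp and called lower on dentin (−1.13 and −1.84). Mpo, Camp, Ltf and Ngp were above the floor in both mature cultures, and Elane in pOC alone. Stromal and osteoblast markers summed to 293.8, 405.9, 273.8 and 342.7, with 10 of 12 named. Col1a1 and Col3a1 were under the floor throughout, whereas Dcn (decorin) read 8.8, 196.1, 55.0 and 127.3 and was called higher on dentin than on plastic (1.21). The 3′ over 5′ log2 ratio of the transferrin receptor control, a sign of RNA length, was 1.70 in mOCd against 0.84 in mOCp. That of pyruvate carboxylase was 0.42 against −0.60, of actin 0.28 against 0.20 and of Gapdh −0.34 against −0.29. The part of these measures in the dentin values was not tested.

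**Figure D4:**
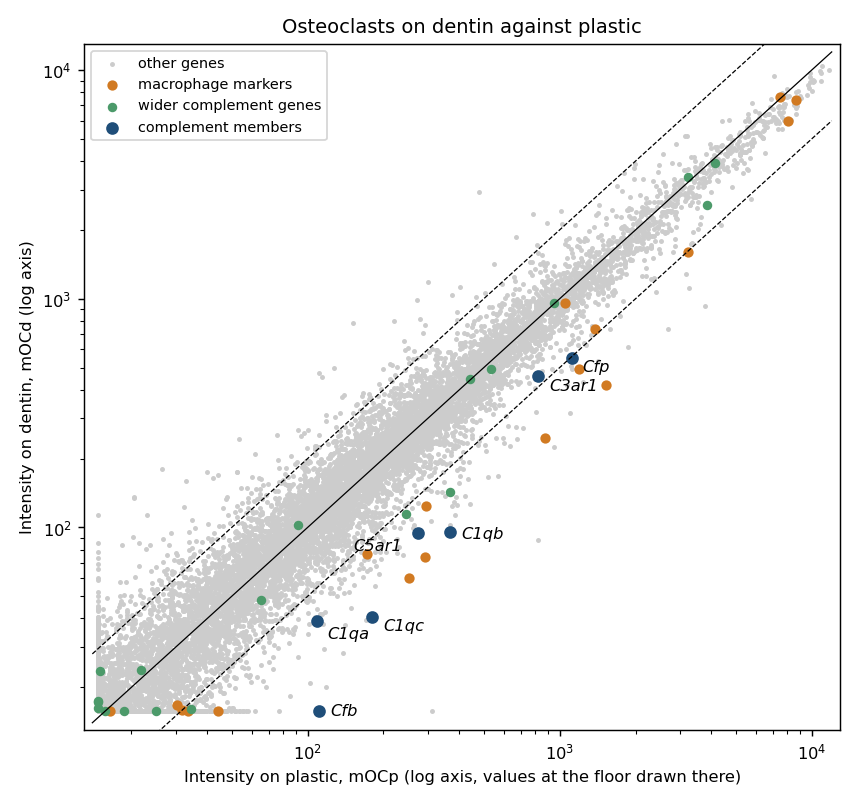
Intensity on dentin (mOCd, y axis) against plastic (mOCp, x axis), both on log axes with values at the floor drawn there; the solid line marks equality and dashed lines 2-fold. The 7 measured complement members (blue) and most macrophage markers (orange) lie below equality. Of the markers 8 of 18 were called lower, which also required brightness, so more of them lie past the 2-fold line. Most of the wider complement genes (green) lie near equality.

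A wider list of 50 complement genes covered initiation, the terminal pathway, regulators and receptors. Of these 40 were named, 24 were above the floor on 1 array or more, and 6 were called in at least 1 comparison. In mOCd against mOCp 2 of 19 measured were lower and 0 higher (2.55% and 2.2% of eligible genes), with a median of 0.01. In mOCp against pOC 3 of 22 were higher and 0 lower (8.77% and 11.4%). In pOC against BMM 1 of 18 was higher and 2 were lower (11.1% and 13.1%), with a median of 0.34. The shares are of eligible genes, whereas the counts include genes too dim for a call. All 6 terminal pathway genes that were named stayed below the 75th percentile on every array. C1ra and C1s1, the proteases that C1q carries, were under the floor on all 4 arrays, as were C2 and the inhibitor gene Cfi.

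Fcna, encoding ficolin A, a lectin pathway recognition protein built like C1q with a collagen-like stalk, read 83.5, 86.1, 245.8 and 114.3 from BMM to mOCd. It was 2.85-fold higher in mOCp than in pOC and 2.15-fold lower in mOCd than in mOCp. Itgam, the alpha chain of complement receptor CR3, read 462.2, 251.4, 368.4 and 142.7, and was 2.58-fold lower on dentin than on plastic. Itgax, the alpha chain of CR4, read 27.3, 34.3, 91.5 and 102.1. It was higher in both mature cultures than in pOC, by 2.67-fold and 2.98-fold, with a log2 ratio of 0.16 between them. With spike-in scaling its ratio of mOCp to pOC was 0.98, under 2-fold.

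Cd93, once proposed as a C1q receptor, resembled C1q in its first step only. Its brightest probe set read 1797.6, 52.7, 65.4 and 48.3 from BMM to mOCd. That probe set was 34.1-fold lower in pOC than in BMM (−5.09), whereas its log2 ratios among the 3 osteoclast arrays stayed between −0.44 and 0.31. The other probe sets of Cd93 gave −4.84, −3.37, −3.07 and, on the dimmest, −0.57 in pOC against BMM. In mOCp against pOC they gave −0.61, −0.09 and 0.31 where measured. Lrp1, a large endocytic receptor that binds C1q, read 1085.7, 433.1, 534.2 and 494.9, and was 2.51-fold lower in pOC than in BMM (−1.33 on the log2 scale). Its other probe set gave −2.46 and the mean over both −1.89.

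The membrane regulator Cd59a, which blocks the terminal attack complex, was higher in the mature cultures than in BMM. It read 174.6, 350.7, 947.1 and 962.9 from BMM to mOCd. In mOCp it was 5.42-fold and in mOCd 5.52-fold higher than in BMM, and its second probe set gave log2 ratios of 2.21 and 2.44 against 2.44 and 2.46. The first step, 2.01-fold from BMM to pOC, was under 2-fold on the second probe set (0.69 on the log2 scale), with median scaling (0.81), after cyclic loess (0.93) and with the mean over probe sets (0.85). The mature cultures did not differ beyond the measurement guide, at 0.02.

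**Figure D5:**
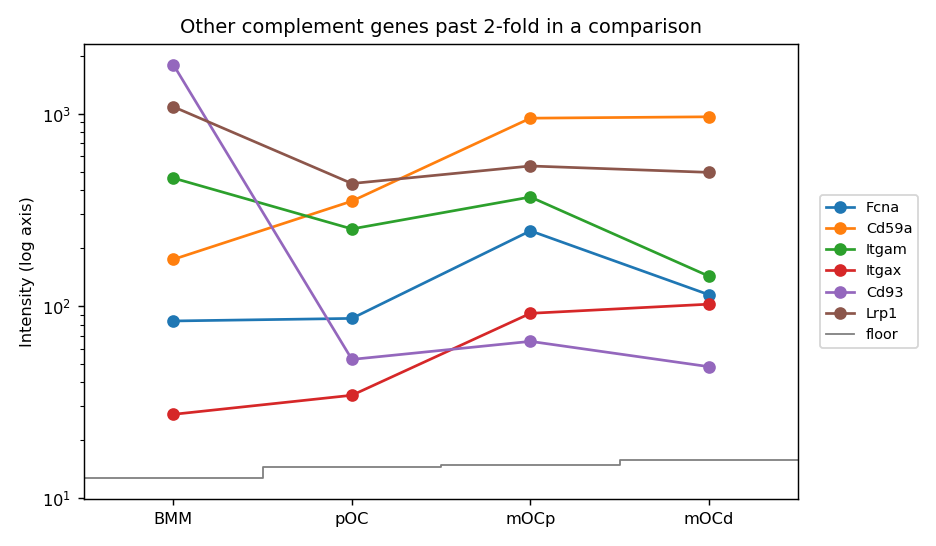
Intensity (log axis) of the 6 further complement genes called in at least 1 comparison on the 4 arrays, with the floor in grey. Cd59a goes from 174.6 in BMM to 962.9 in mOCd, Cd93 from 1797.6 to 48.3, and Fcna and Itgam are lower in mOCd than in mOCp.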

How the data were processed

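Single-channel array intensities of 4 samples were used, 1 per stage. The deposited values are linear intensity per probe set, for which the submitters' processing notes name MAS5 with no version. In the table each array had a mean of 100.0 after trimming 2% from each end. Such scaling hides differences in total mRNA, and MAS5 leaves dim probe sets imprecise. Of 45037 probe sets other than the 64 controls, 34945 carried exactly 1 gene symbol in the platform annotation, and a gene was represented by its brightest probe set. The 8 members found there matched RefSeq by Entrez identifier. Dim values were set to the 50th percentile of their array, and a call needed a 2-fold ratio with the brighter value at the 75th percentile. In all, 6 comparisons were made with no test, since no group had replicates. The calling code was tested on simulated data. Alternatives were 2 other floors, quantile, loess, median and spike-in scaling (12 bright probe sets), mean over probe sets, no suffixed probe sets and no brightness limit. Members and lists were chosen with earlier results of these data known. Named genes were the members, wider complement genes with a call, neighbours, and the 5 nearest profiles; C1ra, C1s1, Cfi and the single markers were named after their values were seen. Python 3.11.15, pandas 2.3.3 and limma 3.58.1 in R 4.3.3 were used.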

Additional observations from a re-analysis of the deposited data

Results flagged for a closer look

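C1qb and C1qc had ratios to pOC of opposite sign in the mature cultures. C1qb had a log2 ratio of 1.33 in mOCp and of −0.62 in mOCd, and C1qc of 1.08 in mOCp and of −1.07 in mOCd. On the brightest probe sets the ratio of C1qb in mOCd was within the measurement guide of 1.01, and that of C1qc just beyond it. A further probe set of C1qb gave −1.17 in mOCd, also beyond it. With spike-in scaling the ratios in mOCp were 0.90 and 0.64, under 2-fold, and after cyclic loess that of C1qc in mOCd was −0.98. The difference was not tested, since each stage has 1 array, and both ratios share the pOC array. C1qb and C1qc belong to the genes that the set was built around for being lower on dentin.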

How the results depend on the processing

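Over 9 alternatives and 6 comparisons, 337 of 351 log2 ratios of the members stayed within 1 probe-set SD of the reported value and 14 moved further. Many of them could not move, so the 337 overstates how stable the ratios are. Dropping the brightness limit or suffixed probe sets left every member's ratio as reported, and the other floors could alter only Cfb. The mean over probe sets could not alter C1qa, C1qc and Cfb, which have 1 probe set each. The sign changed in 4 cases. Of these 1 was a called ratio, Cfp in mOCd against mOCp, at 0.23 with the mean over probe sets. The other 3 were uncalled: Cfp in mOCp against pOC at −0.39 with the mean over probe sets, C5ar1 in mOCp against pOC at −0.10 with spike-in scaling, and C3ar1 in mOCd against pOC at 0.02 after cyclic loess. The counts of members called kept within 1.5 times of the reported ones except for 3: members higher in mOCp than in pOC numbered 1 with spike-in scaling, and members lower in mOCd than in pOC numbered 1 after cyclic loess and 1 with the mean over probe sets. Over all genes, spike-in scaling gave 284 higher and 1653 lower in mOCp against pOC in place of 631 and 820, and 442 and 1596 in mOCd against pOC in place of 779 and 885. It also gave 1031 and 785 in pOC against BMM (806 and 952 reported), 195 and 146 in mOCd against mOCp (152 and 176) and 953 and 1953 in mOCp against BMM (1254 and 1442). Median scaling gave 586 and 1213 in pOC against BMM, 111 and 230 in mOCd against mOCp, 994 and 1856 in mOCp against BMM and 1050 and 2073 in mOCd against BMM (1418 and 1529 reported). Without the brightness limit mOCd against mOCp gave 317 and 328. The cause of these shifts was not tested. No paired analysis was possible because each stage has 1 array and the labels carry no replicate numbers. Signal near the background limits what can be said of Cfb outside mOCp and of Cd55.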
